A study of Mus musculus with 2 samples.

Results

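Dendritic cells that carry transcripts of Cd209a or Flt3 were described in mouse plantaris muscle after tenotomy and in sham muscle. Members were chosen by measured transcript numbers. A cell was a member when it had at least 1 unique molecular identifier (UMI, 1 counted transcript) of Ptprc, at least 2 of Cd209a and Flt3 together, and at least 20 of Cd74, H2-Aa, H2-Ab1 and H2-Eb1 together. It also had under 2 UMIs of Xcr1 and Clec9a, under 5 of C1qa, C1qb and C1qc, under 2 of Cd79a and under 2 of Siglech. The rule found 305 cells in tenotomy muscle and 18 cells in sham muscle, 323 of the 18975 cells kept. The tenotomy group held plantaris muscles of 5 male C57BL/6 mice aged 12 weeks, taken 4 days after the tendon was cut on that side. The sham group held the plantaris muscles of the other leg of the same animals, so every animal had been operated on. Muscles of a group were pooled, digested with 0.2% collagenase for 90 min and sorted for living mononuclear cells (Calcein AM positive, propidium iodide negative), and each pool gave 1 10x Genomics 3' library. With 1 pooled library a group there was no replicate, no test between conditions was possible, and all intervals cover counting error only. The names of the cells rest on transcripts, since no annotation of cell types was used.

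Conventional dendritic cells take up antigen in tissues, move through lymph vessels to lymph nodes under the receptor CCR7, and present peptides on MHC class II molecules to CD4 T cells. They depend on the receptor FLT3 and fall into a type marked by XCR1 and CLEC9A, which presents antigen to CD8 T cells, and a type marked by SIRPA and CD11b. Lectins such as CD209a and MGL2 are found on the second type and on cells derived from monocytes, and some tissue macrophages carry them as well.

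The 11237 tenotomy and 7738 sham cells kept had median depths of 5964 UMIs in tenotomy and 4942.5 UMIs in sham. The members had median depths of 7527 UMIs in tenotomy and 17016.5 UMIs in sham, and 1 sham cell held 10.0% of the UMIs of the sham members. Their mitochondrial shares were alike, with medians of 2.58% in tenotomy and 2.50% in sham. The libraries shared 33 cell barcodes, 1 of them a tenotomy member. The doublet score marked 11 tenotomy members and 0 sham members. Transcripts of some other cell types were concentrated in few members. Of the tenotomy members, 18 held at least 0.2% of their UMIs in a list of mesenchymal, endothelial, neutrophil, muscle or erythroid markers, and of the sham members 6 did. In tenotomy, 8 cells held 78.9% of the UMIs of the mesenchymal list and 4 cells held 89.8% of those of the neutrophil list. In sham, 5 cells held 98.5% of the UMIs of the endothelial list. Other lists were more spread out: 2 cells held 34.3% of the UMIs of the muscle list in tenotomy, and 2 cells held 37.4% of the mesenchymal list in sham. Values without the 24 cells above the limit of 0.2% are given for some of the results.

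The dendritic cells were a larger share of the cells of tenotomy muscle than of sham muscle. They were 2.71% of the kept cells in tenotomy (305 of 11237, exact Clopper-Pearson 95% interval 2.42% to 3.03%) and 0.233% in sham (18 of 7738, 0.138% to 0.367%), a ratio of 11.7 (7.26 to 18.8). Among cells with a Ptprc UMI, the leukocyte marker CD45, the shares lay closer together. There the dendritic cells were 5.37% in tenotomy (305 of 5677, 4.80% to 5.99%) and 3.90% in sham (18 of 462, 2.33% to 6.09%), a ratio of 1.38 whose interval includes 1 (0.865 to 2.20). The C1q macrophages, cells with at least 3 UMIs of Csf1r, Cd68, Mpeg1 and Ms4a6c and at least 10 of the C1q genes, had a ratio of 7.17 among all kept cells and 1.07 among cells with a Ptprc UMI. Endothelial cells were 13.8% of the kept cells in tenotomy and 46.6% in sham, and without them in the denominator the ratio of the dendritic cells was 7.23. A share of cells cannot tell more dendritic cells in the muscle from fewer cells of other kinds in the sort. The rule was also set with it known that most members came from tenotomy, so the shares and their ratio are a description only.

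**Figure D1:**
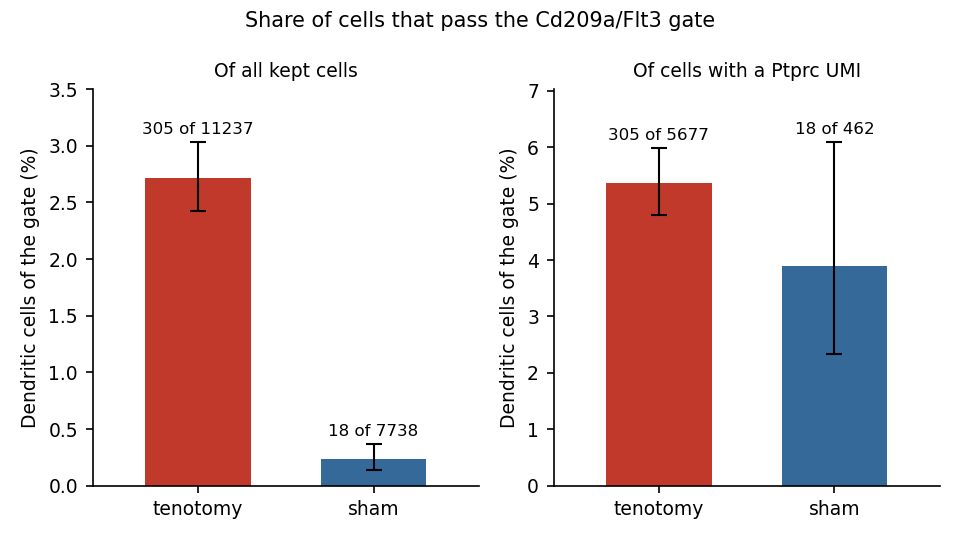
Share of cells that pass the Cd209a/Flt3 rule, of all kept cells (left panel) and of cells with a Ptprc UMI (right panel), in percent, tenotomy left and sham right in each. Bars start at 0, error bars are exact 95% binomial intervals, and numbers are cells. The intervals are far apart over all kept cells (2.71% in tenotomy and 0.233% in sham) and overlap over Ptprc cells (5.37% in tenotomy and 3.90% in sham). The rule was set knowing that most members came from tenotomy.

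The transcripts that chose the members differed between the libraries and are given as a description. Cd209a (chromosome 8, bases 3743397 to 3748984 of mm10, minus strand) encodes a lectin that binds sugars on microbes. It stood at 718 CPM (counts per 1000000 UMIs, from UMIs summed over the cells of a group) in tenotomy members and at 1320 CPM in sham members. Flt3 (chromosome 5, bases 147330741 to 147400489, minus strand), the receptor of the dendritic cell growth factor FLT3 ligand, stood at 101 CPM in tenotomy members and 9.93 CPM in sham members. Of the tenotomy members, 100 had UMIs of both genes (32.8%), 158 of Cd209a only (51.8%) and 47 of Flt3 only (15.4%). Of the sham members, 2 had both and 16 had Cd209a only, and 0 of 18 had Flt3 only, which allows a share of up to 18.5%. After each cell was thinned to 2000 UMIs, Flt3 was found in 19.4% of tenotomy members and in 0 of the 18 sham members.

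The limits of the rule did not weigh alike on the libraries. Exactly 2 UMIs of Cd209a and Flt3, the lowest number that passes, were held by 65 tenotomy members and 0 sham members, and 90 tenotomy and 2 sham cells missed the rule with exactly 1. The limit on C1q took 24 of 42 sham cells that had passed the steps before it, and 52 of 367 tenotomy cells. C1q macrophages of the sham library held Cd209a themselves, at 95.6 CPM with a UMI in 21.3% of cells, and tenotomy macrophages at 8.39 CPM with a UMI in 2.62% of cells. The class II limit cut few cells near its edge, with 1 tenotomy member at 20 to 29 UMIs and 1 tenotomy cell just outside at 10 to 19. When at least 1 Flt3 UMI was required, 147 tenotomy cells and 2 sham cells were left and the ratio of shares was 50.6 among all kept cells and 5.98 among Ptprc cells.

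**Figure D2:**
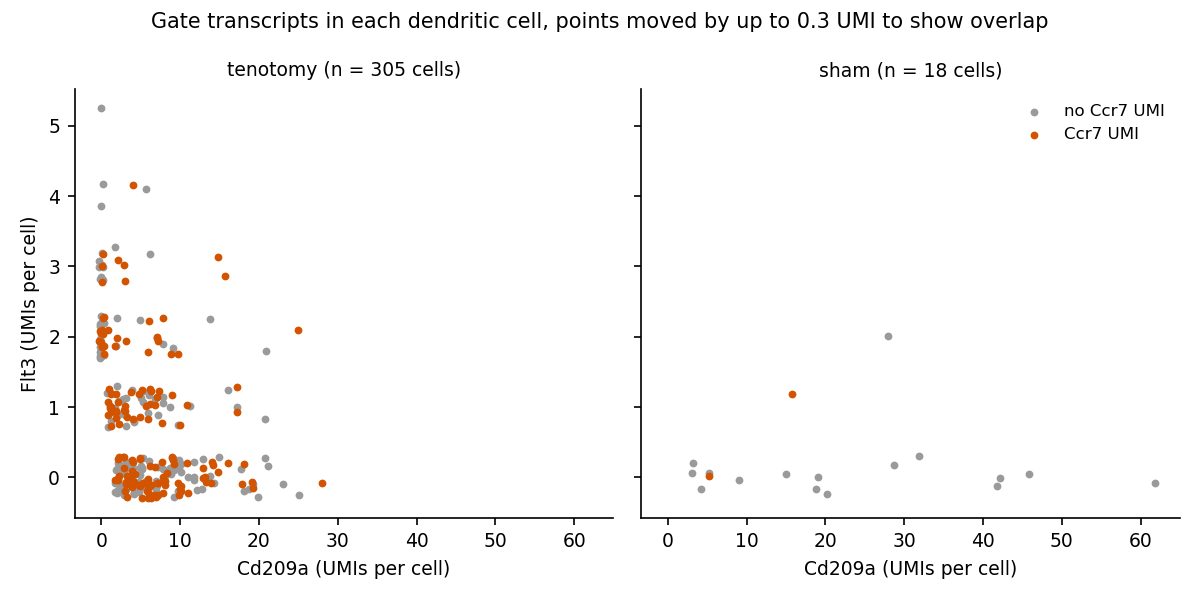
UMIs of Cd209a (x axis) and of Flt3 (y axis) in each of the 305 tenotomy members (left panel) and 18 sham members (right panel), with cells that hold a Ccr7 UMI in orange and others in grey. Points are shifted by up to 0.3 UMI so that overlapping cells show. Sham members reach 62 Cd209a UMIs and 2 have any Flt3, while 47 tenotomy members lie on the Flt3 axis with no Cd209a.

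The label of conventional dendritic cells was set against genes outside the rule. Zbtb46, a transcription factor of conventional dendritic cells, stood at 25.9 CPM in tenotomy members and 23.2 CPM in sham members, against 1.67 CPM in tenotomy C1q macrophages and 8.16 CPM in sham C1q macrophages. Endothelial cells carry it too, at 19.9 CPM in tenotomy and 31.3 CPM in sham, and 3 of the 7 Zbtb46 UMIs of the sham members were left without the 6 sham cells that carried other markers. Itgax, the integrin CD11c, stood at 74.1 CPM in tenotomy members, against 10.0 CPM in tenotomy macrophages, and it was 16.5-fold higher in sham members, at 116 CPM, than in sham macrophages. In endothelial cells it had 2 UMIs in tenotomy and 0 UMIs in sham. Both groups of members lay above the macrophages of their own library in both genes. The list of 15 markers of T, natural killer and innate lymphoid cells summed to 286 CPM in tenotomy members and 278 CPM in sham members, mostly from Il7r (234 CPM in tenotomy and 232 CPM in sham). Of the other genes of that list, Cd3e stood at 1.99 CPM and Nkg7 at 1.59 CPM (4 UMIs in 1 cell) in tenotomy members, and both were at 0 in sham members. The B cell gene Cd79b and the T cell gene Trac had 0 UMIs in the members of both libraries. The 9 marker genes of the Xcr1 and Clec9a type outside the rule summed to 321 CPM in tenotomy members and 420.2 CPM in sham members, against 1589.8 CPM in tenotomy Xcr1 Clec9a cells. The values fit the label for the tenotomy members. For the sham members the label rests on Itgax among the genes named here, since Zbtb46 had few UMIs and Flt3 had 3 UMIs in all. The list of dendritic cell genes went both ways in sham, and the class II genes of the rule cannot bear on the label. The sham members also held macrophage transcripts, with Lyz2 at 8441 CPM, Retnla at 1896 CPM and Cd163 at 248 CPM, and sham macrophages held Cd209a. Whether all 18 are dendritic cells cannot be told from these transcripts, so the name sham dendritic cells below means only that they met the rule.

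A gene was counted as higher or lower when its CPM was at least 2-fold apart. Genes entered when they had at least 50 CPM and 25 UMIs in the higher group and at least 10% of the level over all kept cells of that library. Between dendritic cells and C1q macrophages 3208 genes were compared in tenotomy, of which 224 (6.98%) were higher and 552 (17.2%) lower in dendritic cells. In sham 2801 genes were compared, of which 250 (8.93%) were higher and 656 (23.4%) lower. Of 2454 genes compared in both libraries, 96 were higher in the dendritic cells of both, 294 lower in both, and 11 went opposite ways. The rule set opposite limits on C1q for the groups compared, and the part of these limits in the differences was not tested.

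Several genes that load peptides onto class II molecules were higher in dendritic cells than in macrophages. Of 12 measured genes of the class II pathway other than those of the rule, 6 were higher and 3 lower than in tenotomy macrophages, with a median of 1.81-fold against 0.877-fold over all genes compared. In sham 3 of 10 were higher and 2 lower than in macrophages, with a median of 0.920-fold against 0.874-fold over all genes. H2-Oa, a chain of the H2-O protein that restrains peptide loading, stood at 139 CPM in tenotomy dendritic cells and 2.51 CPM in tenotomy macrophages (55.5-fold, 42.9 to 72.5). H2-Ob, its partner, stood at 57.4 CPM against 3.20 CPM (17.9-fold). H2-DMb2, a chain of the H2-DM protein that exchanges peptides, stood at 111 CPM in tenotomy dendritic cells and 4.11 CPM in tenotomy macrophages (27.1-fold, 21.7 to 33.9). In the sham library it stood at 136 CPM in dendritic cells and 5.05 CPM in macrophages (26.8-fold, 14.1 to 54.6). H2-DMb1 was 5.07-fold higher in tenotomy and 4.51-fold higher in sham, and H2-DMa 3.69-fold higher in tenotomy and 3.39-fold higher in sham. The lower genes were the lysosomal proteases Ctsl (12.3-fold lower in tenotomy) and Lgmn (5.94-fold lower in tenotomy) and the tetraspanin Cd37 (2.09-fold lower in tenotomy). H2-DMb1 and H2-DMb2 are near-identical copies, and the sources used here do not say how reads that such copies share were counted. This holds for the Ifitm, Lyz, Hspa1, Mgl2/Clec10a and Cd209 families too, so single members of these families are uncertain.

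Class II genes share a promoter module that ends in an inverted CCAAT box bound by the factor NF-Y and that recruits the coactivator CIITA. The promoter windows of 3 class II loading genes described above are shown because the motif lies in each, from RefSeq on GRCm38.p6, 250 bases before to 50 bases after the gene start, plus strand, with the letters TGATTGG in capitals.
H2-Oa, chr17:34092129-34092428: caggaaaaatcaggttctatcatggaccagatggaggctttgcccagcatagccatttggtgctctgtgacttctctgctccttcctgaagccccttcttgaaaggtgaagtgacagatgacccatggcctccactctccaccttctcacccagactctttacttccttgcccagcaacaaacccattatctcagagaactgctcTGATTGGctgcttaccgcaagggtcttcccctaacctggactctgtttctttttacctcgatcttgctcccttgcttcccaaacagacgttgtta
H2-DMb2, chr17:34144999-34145298: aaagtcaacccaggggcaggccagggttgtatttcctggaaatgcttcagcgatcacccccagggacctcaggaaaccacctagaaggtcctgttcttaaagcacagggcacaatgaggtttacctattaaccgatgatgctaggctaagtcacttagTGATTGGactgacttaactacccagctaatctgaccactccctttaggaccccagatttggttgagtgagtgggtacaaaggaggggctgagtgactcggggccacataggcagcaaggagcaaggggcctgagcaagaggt
H2-DMb1, chr17:34152941-34153240: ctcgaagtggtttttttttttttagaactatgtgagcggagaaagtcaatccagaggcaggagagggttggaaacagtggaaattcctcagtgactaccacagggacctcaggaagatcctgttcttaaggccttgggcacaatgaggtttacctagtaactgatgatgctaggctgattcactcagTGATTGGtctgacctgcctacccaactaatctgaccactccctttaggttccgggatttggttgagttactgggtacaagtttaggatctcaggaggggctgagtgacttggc
The motif starts 45, 92 and 63 bases before the gene start in H2-Oa, H2-DMb2 and H2-DMb1. On either strand (TGATTGG or CCAATCA) it was found in 5 of 6 class II genes outside the rule with a promoter window and in 7.82% of 32851 promoter windows. H2-DMa had no match in its windows. Ciita itself stood at 42.6 CPM in tenotomy dendritic cells and 8.87 CPM in tenotomy macrophages, and at 36.4 CPM in sham dendritic cells and 27.6 CPM in sham macrophages.

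Receptors and signalling genes that were higher in dendritic cells than in macrophages of both libraries included homing and survival genes. Itgb7, an integrin chain used in homing, stood at 204 CPM in tenotomy dendritic cells and 15.5 CPM in tenotomy macrophages (13.2-fold), and at 205 CPM in sham dendritic cells and 12.4 CPM in sham macrophages (16.5-fold). Traf1, a survival adaptor of tumour necrosis factor receptors, stood at 557 CPM in tenotomy dendritic cells and 56.2 CPM in tenotomy macrophages (9.92-fold), and at 258 CPM in sham dendritic cells and 17.9 CPM in sham macrophages (14.4-fold). Il7r, the receptor chain for interleukin 7 and TSLP, stood at 234 CPM in tenotomy and 232 CPM in sham dendritic cells. Its fold over macrophages was 3.52 in tenotomy and 13.5 in sham. Csf2rb, the signalling chain of the GM-CSF receptor, was 2.56-fold higher in tenotomy and 7.52-fold higher in sham. All 4 genes were above the macrophages in both libraries, but the list of growth factor and cytokine receptors went both ways. In tenotomy 7 of 23 measured genes of that list were higher and 6 lower, against 6.98% and 17.2% of all genes compared. In sham 3 of 16 were higher and 4 lower, against 8.93% and 23.4%. The 4 genes therefore do not stand for receptors as a group.

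Of the cytokines, Il1b, which encodes interleukin 1 beta, stood apart in both libraries. It stood at 4477 CPM in tenotomy dendritic cells and 643 CPM in tenotomy macrophages (6.97-fold, 6.81 to 7.13). In sham it stood at 3660 CPM in dendritic cells and 497 CPM in macrophages (7.36-fold, 6.78 to 7.98). After thinning, 88.5% of tenotomy members and 88.9% of sham members held an Il1b UMI, against 3.35% of tenotomy endothelial cells, which have a median depth of 3506 UMIs. The other cytokines were mostly lower in dendritic cells. Counting all 25 measured cytokine and chemokine genes of tenotomy, 3 were higher (Il1b, Ccl5 and Areg) and 20 lower than in C1q macrophages. The neutrophil attractant Cxcl2 stood at 580 CPM in tenotomy dendritic cells and 6079 CPM in tenotomy macrophages (10.5-fold lower), and Tnf, tumour necrosis factor, at 13.1 CPM against 267 CPM (20.3-fold lower). In sham 5 of 24 were higher and 13 lower. Ccl17, an attractant of CCR4-bearing T cells, was among the higher ones in sham at 103 CPM in dendritic cells and 0.778 CPM in macrophages, but 1 cell held 83.9% of its 31 UMIs in the sham dendritic cells. Immune complex and pattern receptors were lower as well, with 0 of 15 measured genes higher and 8 lower in tenotomy, among them the IgG receptors Fcgr1 (4.11-fold lower) and Fcgr3 (5.53-fold lower) and the bacterial lipoprotein receptor Tlr2 (7.07-fold lower). Of the costimulation genes 1 of 10 measured was higher in tenotomy (Cd80, 6.17-fold) and 2 lower, and in sham 0 of 6 were higher and 3 lower. Their median in tenotomy was 1.13-fold, against 0.877-fold over all genes compared. All counts of lists given here stand against 6.98% higher and 17.2% lower over all genes in tenotomy. In sham these shares were 8.93% and 23.4%. Macrophage genes were lower: of 30 measured in tenotomy, 0 were higher and 28 lower, and of 28 in sham, 1 was higher (Cd9) and 23 lower. Apoe, a lipid carrier of macrophages, stood at 350 CPM in tenotomy dendritic cells and 16424 CPM in tenotomy macrophages, and at 192 CPM in sham dendritic cells and 13844 CPM in sham macrophages. The summed level of the macrophage list of 35 genes was 4256 CPM in tenotomy and 6419 CPM in sham members, against 43160 CPM in tenotomy and 39230 CPM in sham macrophages.

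Several genes known from natural killer cells and other lymphocytes stood out in the tenotomy dendritic cells. Klrd1, which encodes the receptor chain CD94, stood at 407 CPM in tenotomy dendritic cells and 5.12 CPM in tenotomy macrophages (79.6-fold, 66.9 to 95.2), and 47.4% of members held it after thinning, against 0.399% of endothelial cells. Cd7, a lymphocyte surface protein, stood at 162 CPM against 1.01 CPM (160.2-fold, 109.9 to 242). Klrb1b was 37.0-fold higher and Klrk1, the receptor NKG2D, 27.9-fold higher. The Xcr1 Clec9a dendritic cells held Klrb1b (194 CPM) and Klrk1 (145 CPM) too, but little Klrd1 (55.2 CPM) and 1 UMI of Cd7. In sham dendritic cells Klrd1 stood at 36.4 CPM (11 UMIs) and Cd7 at 6.62 CPM (2 UMIs, both in 1 cell). Klrd1, Cd7, Klrb1b and Klrk1 are not in the list of 15 lymphocyte markers, of which 3 genes were at 0 in tenotomy members and 11 in sham members. Ncr1, Klrb1c and Trac were at 0 in both libraries, and Gzma had 1 UMI in tenotomy members.

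**Figure D3:**
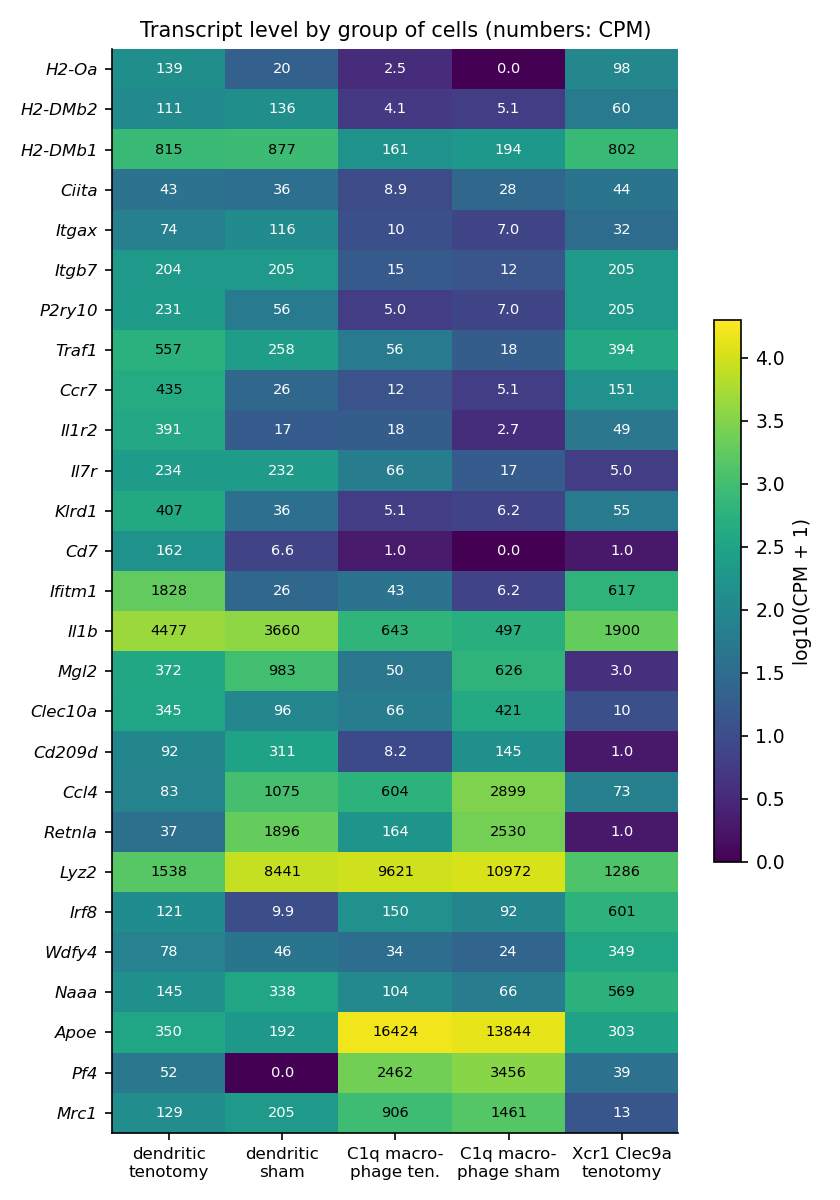
Level of 27 genes in dendritic cells of tenotomy and sham, in C1q macrophages of tenotomy and sham, and in Xcr1 Clec9a dendritic cells of tenotomy, with colour on a log10(CPM + 1) scale and the CPM printed in each cell. H2-Oa (139 CPM), Ccr7 (435 CPM), Klrd1 (407 CPM) and Cd7 (162 CPM) are higher in tenotomy dendritic cells than in any other column, and Apoe, Pf4 and Mrc1 are highest in the macrophage columns.

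Of the 11 genes that went opposite ways against macrophages, 4 were higher in tenotomy and lower in sham and 7 the reverse. Clec10a, the galactose lectin MGL1, stood at 345 CPM in tenotomy dendritic cells and 65.6 CPM in tenotomy macrophages (5.26-fold higher, 4.84 to 5.70), but at 96.0 CPM in sham dendritic cells and 421 CPM in sham macrophages (4.39-fold lower, 3.04 to 6.58). Apod, Rrad and Pxdc1 went the same way as Clec10a. Fn1, fibronectin, stood at 353 CPM in tenotomy dendritic cells and 1101 CPM in tenotomy macrophages (3.12-fold lower), but at 1019 CPM in sham dendritic cells and 203 CPM in sham macrophages (5.02-fold higher, 4.35 to 5.79). Il1rn, Stmn1, Lat2, Capg, Tubb5 and Gda went the same way as Fn1. The difference between the libraries was not tested, and a single cell held 27.3% of the 308 Fn1 UMIs of the sham members.

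**Figure D4:**
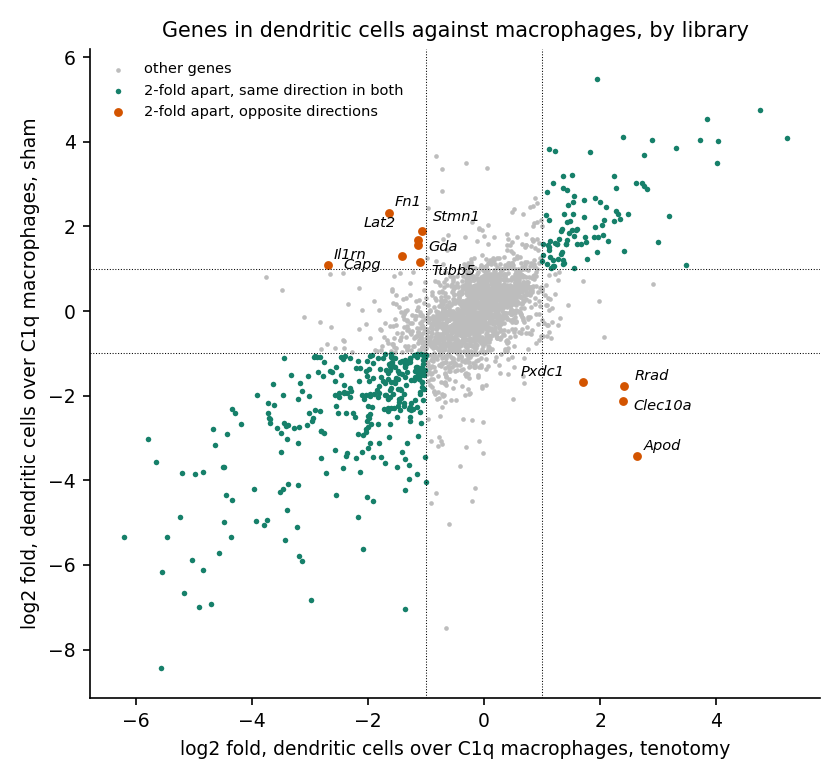
Log2 fold of CPM, dendritic cells over C1q macrophages, in tenotomy (x axis) and in sham (y axis) for 2454 genes measured in both, with dotted lines at 2-fold. Green points (96 higher and 294 lower in both) lie in the corners where both folds have the same sign, and the 11 orange named genes lie in opposite corners, with Clec10a at 5.26-fold in tenotomy and 0.228-fold in sham.

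Against the other dendritic cell type of the same tenotomy muscle, 87 cells with at least 2 UMIs of Xcr1 and Clec9a and otherwise the same limits, 2821 genes were compared. Of them 266 (9.43%) were higher and 182 (6.45%) lower in the Cd209a/Flt3 cells. Integrins and lectins of the CD11b type set them apart. Itgam, CD11b itself, stood at 139 CPM in the Cd209a/Flt3 cells and 6.02 CPM in the Xcr1 Clec9a cells (interval of the fold 10.5 to 63.1). Sirpa stood at 70.1 CPM against 9.03 CPM (7.76-fold), and Mgl2 at 372 CPM against 3.01 CPM (124-fold, 42.1 to 600.1). Of 9 measured endocytic lectin genes 8 were higher and 0 lower, and of 12 measured pattern receptor genes 11 were higher and 0 lower. Cd14, an endotoxin coreceptor, was 6.81-fold higher, and the fungal lectin receptor Clec4n 49.2-fold higher. All 5 measured marker genes of the Xcr1 Clec9a type outside the rule were lower, with Cadm1 15.5-fold and Itgae, the integrin CD103, 8.34-fold lower. Irf8, the transcription factor of that type, stood at 121 CPM against 601 CPM (4.98-fold lower, 4.33 to 5.74). The interferon-induced T cell attractant Cxcl9 stood at 5.18 CPM against 183 CPM (35.3-fold lower), and 5 of 16 measured genes of class I presentation were lower, with 0 higher. Of 14 measured class II pathway genes 4 were higher and 0 lower, and the summed list stood at 6198 CPM in the Cd209a/Flt3 cells and 3940.4 CPM in the Xcr1 Clec9a cells, while H2-DMa (1.04-fold) and H2-DMb1 (1.02-fold) were within 2-fold.

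A last group for comparison held 133 tenotomy cells with at least 3 UMIs of Ly6c2, few class II transcripts and no Cd209a or Flt3, chosen to stand for monocytes. It carried Elane (1735 CPM), Mpo (1644 CPM) and Prtn3 (1673 CPM), granule genes of granulocyte precursors, beside monocyte genes. It is therefore named by its rule only and called the Ly6c2 cells here. Against it 3164 genes were compared, of which 268 (8.47%) were higher and 445 (14.1%) lower in dendritic cells. Of 21 measured genes of the monocyte list 0 were higher and 15 lower in dendritic cells, and of 16 measured mitotic genes 0 were higher and 13 lower.

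The tenotomy members were not uniform. The 47 members with Flt3 only held more transcripts of the Xcr1 Clec9a type than the 158 with Cd209a only, although both met the limit on Xcr1 and Clec9a. The summed level of that marker list was 888 CPM in Flt3-only members, 237 CPM in Cd209a-only members and 162 CPM in members with both. Irf8 stood at 401 CPM in Flt3-only members and 59.0 CPM in Cd209a-only members (6.79-fold, 5.16 to 9.02). Wdfy4, needed for cross-presentation, was 6.14-fold higher and Ppt1, a lysosomal thioesterase, 5.90-fold higher. Fscn1, an actin bundling protein of migrating dendritic cells, stood at 134 CPM against 18.4 CPM (7.31-fold), and the chemokine Ccl5 at 684 CPM against 126 CPM (5.41-fold). Lectins were lower: Mgl2 stood at 16.8 CPM in Flt3-only members and 590 CPM in Cd209a-only members (35.1-fold lower), and Clec10a at 19.2 CPM against 400 CPM (20.8-fold lower). Over 2699 genes compared, 162 (6.00%) were higher and 268 (9.93%) lower. The lower ones included collagen genes, and the summed mesenchymal list stood at 437 CPM in Flt3-only and 3640 CPM in Cd209a-only members. Its part in the other differences was not tested.

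Ccr7 (chromosome 11, bases 99144196 to 99155077, minus strand), the receptor for entry into lymph vessels, was unevenly spread. At least 1 Ccr7 UMI was held by 146 of 305 tenotomy members (47.9%, 42.1% to 53.6%) and 2 of 18 sham members (11.1%, 1.38% to 34.7%). After thinning the shares were 34.2% in tenotomy members and 5.56% in sham members, against 1.04% of tenotomy macrophages and 0.160% of tenotomy endothelial cells. Stricter evidence of maturation, at least 3 UMIs over Ccr7, Fscn1, Ccl22, Cacnb3, Il4i1 and Socs2 after thinning, was found in 16.1% of tenotomy members (49 of 304, 12.2% to 20.7%) and 0 of 18 sham members, which allows up to 18.5%. Without thinning it was found in 38.0% of tenotomy members and 16.7% of the deeper sham members (3 of 18). Without Ccr7 among these genes the thinned share was 1.97% of tenotomy members (6 of 304), so most of the 49 cells reached the limit only with their Ccr7 UMIs. Over the whole list of genes that mature with Ccr7, 4 of 12 measured were higher and 2 lower in tenotomy than in sham members, against 11.5% and 9.66% of all genes compared.

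The tenotomy members were therefore also split by Ccr7, a split chosen after its values were seen and given without a test. Of 2700 genes compared, 58 (2.15%) were higher and 47 (1.74%) lower in the 146 members with a Ccr7 UMI than in the 159 without. Their median depths were alike, at 7494 UMIs with Ccr7 and 7547 UMIs without. The summed list of genes that mature with Ccr7, with Ccr7 itself left out, stood at 3665 CPM with Ccr7 and 1875 CPM without. Stromal genes were among those higher with Ccr7: Apod led the list (27.5-fold), and Igfbp5 was 13.2-fold, Cilp 4.20-fold, Prg4 4.19-fold and Dcn 3.37-fold higher. The summed mesenchymal list stood at 2242 CPM with Ccr7 and 2054 CPM without. Tbc1d4, a regulator of glucose transporter traffic, stood at 250 CPM with Ccr7 and 24.1 CPM without (10.4-fold, 7.20 to 15.5). The receptor gene Kit was 3.38-fold higher, the interleukin 21 receptor Il21r 3.21-fold higher and the transcription factor Stat4 4.09-fold higher. Lysozyme, Lyz2, a gene of monocytes and macrophages, stood at 915 CPM with Ccr7 and 2090 CPM without (2.29-fold lower), and Fn1 at 203 CPM against 486 CPM (2.39-fold lower). The neutrophil markers S100a9 and Ngp were lower with Ccr7 too, and the summed neutrophil list stood at 290 CPM with Ccr7 and 1436 CPM without. Among the tenotomy members 4 cells held 89.8% of the UMIs of the neutrophil list, and 8 cells held 78.9% of those of the mesenchymal list. The split was not repeated without these cells, and their part in its differences was not tested.

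Between tenotomy and sham dendritic cells 2411 genes were compared, of which 277 (11.5%) were higher and 233 (9.66%) lower in tenotomy. The median over all genes was 0.10 on the log2 scale. Without the 24 members that carried markers of other cells, 298 of 2023 genes were higher and 145 lower and the median was 0.22. Ranked by the bound of the interval nearest to 1, the 12 genes that lead on the tenotomy side included markers of other cells, namely Col3a1, Col1a1, Col1a2, Postn, S100a8, S100a9 and Ngp. In sham the endothelial genes Aqp1, Kdr, Flt1 and Ptprb and Timp4, which stood at 1782 CPM in sham endothelial cells, were among the 12 that lead. The summed mesenchymal list was 2143 CPM in tenotomy and 354 CPM in sham members, and 488 CPM in tenotomy and 239 CPM in sham without the 24 cells. The summed endothelial list was 111 CPM in tenotomy and 1721 CPM in sham members, and 43.7 CPM in tenotomy and 29.2 CPM in sham without them.

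Genes higher in tenotomy dendritic cells included membrane proteins and receptors of immune cells. Ifitm1, an interferon-induced membrane protein, stood at 1828 CPM (4590 UMIs) in tenotomy members and 26.5 CPM (8 UMIs) in sham members (69.1-fold, 35.0 to 160.1). It was found after thinning in 60.2% of tenotomy members and 0 of 18 sham members, against 2.63% of tenotomy endothelial cells. Il1r2, the decoy receptor for interleukin 1, stood at 391 CPM in tenotomy and 16.5 CPM in sham members (23.7-fold, 10.1 to 73.0). Ccr7 stood at 435 CPM in tenotomy and 26.5 CPM in sham members (16.4-fold, 8.30 to 38.1), and Klrd1 at 407 CPM in tenotomy and 36.4 CPM in sham members (11.2-fold). Plac8 was 10.2-fold and Ms4a4c 7.18-fold higher, both known from monocytes. The monocyte list as a whole went both ways, with 5 of 15 measured genes higher and 7 lower and a median of 0.740-fold. Over all genes compared 11.5% were higher and 9.66% lower. Ptgs2, the inducible cyclooxygenase, had 651 UMIs in tenotomy members and 0 UMIs in sham members. It was 26.1-fold higher against a floor of 3 UMIs over the sham members, with an interval from 21.2 upward. Gcnt2, a glycosyltransferase, stood at 215 CPM in tenotomy and 3.31 CPM in sham members (1 UMI in sham, 64.9-fold, 11.6 to 2567). Each of these genes was also at least 2-fold higher without the 24 cells, with Ifitm1 at 80.4-fold, Il1r2 at 17.0-fold and Ccr7 at 19.2-fold. Plac8 and Gcnt2 then had 0 UMIs left in sham. Against the floor of 3 UMIs Plac8 was 41.7-fold higher (interval from 33.8 upward) and Gcnt2 15.8-fold (from 12.8 upward). Among 19 measured growth factor and cytokine receptors 4 were higher (Il1r2, Il21r, Csf2rb2 and Kit) and 2 lower (Csf2ra and Il6ra), and 13 were within 2-fold. This count stands against 11.5% higher and 9.66% lower over all genes compared. Kit had 140 UMIs in tenotomy members and 0 UMIs in sham members, 5.62-fold higher against the same floor of 3 UMIs. Il21r stood at 59.7 CPM in tenotomy and 3.31 CPM in sham members (18.1-fold), and Csf2ra, the binding chain of the GM-CSF receptor, at 125 CPM in tenotomy and 304 CPM in sham members (2.43-fold lower).

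Genes lower in tenotomy dendritic cells included resident-type macrophage genes and chemokines. Retnla, a secreted protein induced by interleukin 4, stood at 37.0 CPM in tenotomy members and 1896 CPM in sham members (51.2-fold lower, 41.1 to 64.4). It was found after thinning in 2.63% of tenotomy members and 33.3% of sham members, and 1 cell held 34.7% of its sham UMIs. In the macrophages Retnla stood at 164 CPM in tenotomy and 2530 CPM in sham. Lyz2 stood at 1538 CPM in tenotomy and 8441 CPM in sham members (5.49-fold lower), and its copy Lyz1 was 45.8-fold lower, with 75.3% of its sham UMIs in 1 cell. The scavenger receptor Cd163 stood at 18.3 CPM in tenotomy and 248 CPM in sham members (13.5-fold lower). The chemokine Ccl4 stood at 82.8 CPM in tenotomy and 1075 CPM in sham members (interval of the lower fold 10.9 to 15.5), and the interferon-induced chemokine Cxcl10 at 47.4 CPM in tenotomy and 642 CPM in sham members (13.5-fold lower). A single cell held 35.7% of the sham Ccl4 UMIs, and another share of 38.7% of the sham Cxcl10 UMIs was in 1 cell. Without the 24 cells Cxcl10 was 20.7-fold lower. The cytokine and chemokine list went both ways, with 4 of 17 measured genes higher and 8 lower in tenotomy and a median log2 fold of -0.80. Over the macrophage list, 4 of 17 measured genes were higher and 8 lower in tenotomy, with a median log2 fold of -0.67. Over all genes compared 11.5% were higher and 9.66% lower, so the list went both ways. Without the 24 cells 3 of 12 macrophage genes were higher and 3 lower, with a median of -0.07. Of all 2023 genes compared without them, 298 were higher and 145 lower.

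Receptors, lectins and transcription factors of dendritic cells went both ways between tenotomy and sham. The counts that follow stand against 11.5% higher and 9.66% lower over all genes compared. Of 19 measured dendritic cell genes outside the rule 5 were higher and 4 lower. Irf8 stood at 121 CPM in tenotomy and 9.93 CPM in sham members (12.2-fold, 3 UMIs in sham). Among members with no Flt3 UMI Irf8 was 5.26-fold higher, and without the 24 cells 26.4-fold. Each of these folds rests on at most 3 UMIs in sham, so their sizes are uncertain. Irf4, the factor of the CD11b type, stood at 28.7 CPM in tenotomy and 129 CPM in sham members (4.50-fold lower, 2.97 to 6.74, and 7.03-fold lower without the 24 cells). Of 11 measured endocytic lectin genes 3 were higher and 6 lower. Clec10a was 3.59-fold higher (2.48 to 5.40; 0.766-fold when Flt3 was required, which left 2 sham cells), while its neighbour and relative Mgl2 was 2.64-fold lower (2.31 to 3.01) and Cd209d 3.40-fold lower. Among members with no Flt3 UMI the folds were 6.68 for Clec10a and 0.621 for Mgl2, which was then within 2-fold. Of 8 measured costimulation genes 2 were higher and 2 lower. Cd274, the inhibitory ligand PD-L1, had 162 UMIs in tenotomy and 1 UMI in sham members (19.5-fold, 3.45 to 775). Without the 24 cells it was 4.67-fold higher, with sham taken at the floor of 3 UMIs. Icam1 stood at 74.1 CPM in tenotomy and 271 CPM in sham members (3.66-fold lower). Il1b was within 2-fold, at 4477 CPM in tenotomy and 3660 CPM in sham members (1.22-fold, 1.15 to 1.30), as were H2-DMa, H2-DMb1 and H2-DMb2. Of 11 measured class II pathway genes 3 were higher and 1 lower, with H2-Oa at 139 CPM in tenotomy and 19.9 CPM (6 UMIs) in sham members, an interval of the fold of 3.18 to 19.2.

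Interferon-response genes were split, with 7 of 17 measured genes higher and 7 lower. Irf7 (7.18-fold) and Ly6e (3.83-fold) were higher, and Ifit1 (13.3-fold), Irf1 (6.58-fold) and Iigp1 (40.9-fold) lower. Iigp1 and Irf1 stood at 2410 CPM and 726 CPM in sham endothelial cells, and Iigp1 had 0 UMIs in sham members without the cells that carried other markers. Without the 24 cells 8 of 13 were higher and 3 lower, with Ly6e 27.0-fold (10.5 to 99.2) and Irf7 15.1-fold higher and Ifit1 7.64-fold lower. Immediate early and heat shock genes, which also respond to tissue digestion, were lower as a group: of 29 measured genes 1 was higher (Dusp2) and 18 lower. The median log2 fold over the list was -1.43, against 0.10 over all genes. Jund stood at 497 CPM in tenotomy and 1539 CPM in sham members (3.10-fold lower), Atf3 was 5.29-fold lower (3.06-fold without the 24 cells) and Hspa1b 4.48-fold lower. The summed list stood at 10037 CPM in tenotomy and 23334 CPM in sham dendritic cells. It was 12961 CPM in tenotomy and 42620 CPM in sham macrophages, and 9895 CPM in tenotomy and 16856 CPM in sham Xcr1 Clec9a cells.

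**Figure D5:**
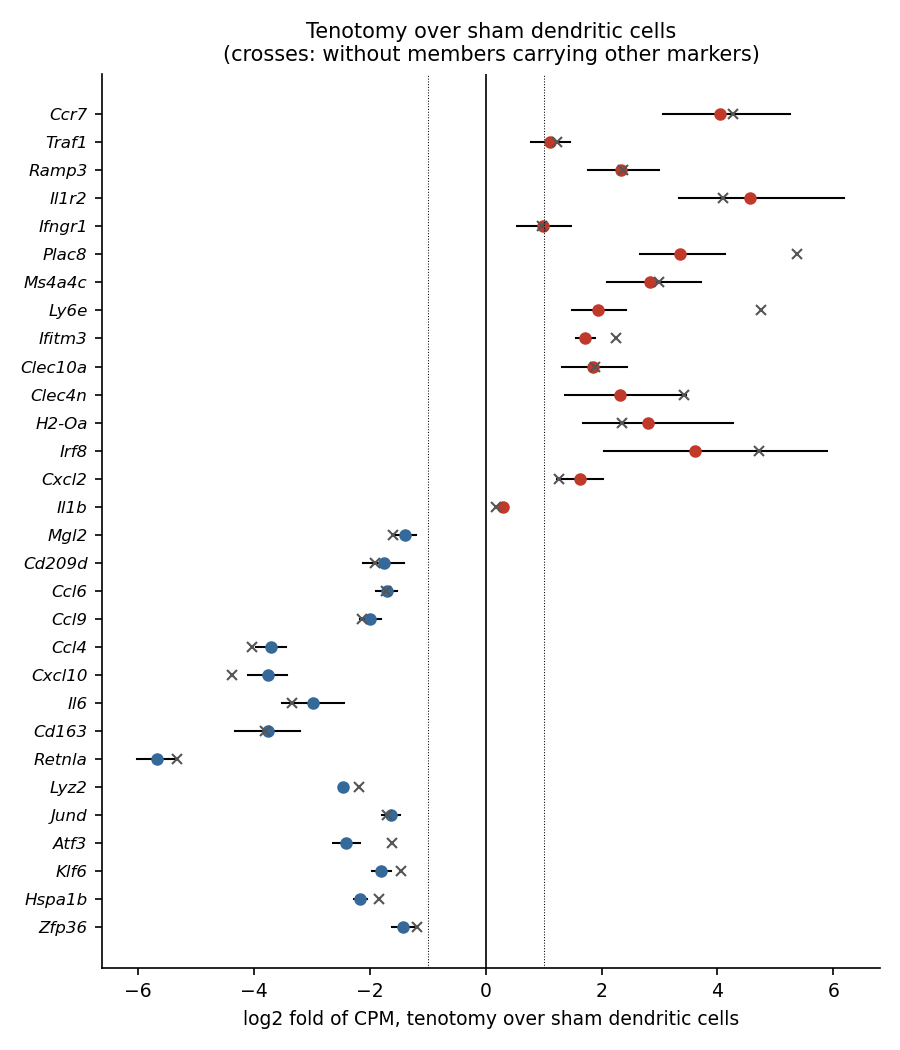
Log2 fold of CPM, tenotomy over sham dendritic cells, for genes named in the lists, with bars as exact 95% counting intervals and dotted lines at 2-fold. Crosses are the folds without the 18 tenotomy and 6 sham members that carried markers of other cells, and for Plac8, with 0 UMIs left in sham, the cross is a lower bound. Ccr7 (16.4-fold) and Il1r2 (23.7-fold) lie far right, Retnla (51.2-fold lower) far left, and Il1b (1.22-fold) next to 0.

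Few dendritic cells carried cell cycle transcripts at equal depth. At least 2 UMIs over 12 cycle genes were found after thinning in 4.28% of tenotomy members (13 of 304, 2.30% to 7.20%) and 11.1% of sham members (2 of 18, 1.38% to 34.7%), and without thinning in 13.1% of tenotomy and 22.2% of sham members. Among C1q macrophages the thinned shares were 8.06% in tenotomy and 0.631% in sham. Of 10 measured mitotic genes 0 were higher and 6 lower in tenotomy than in sham dendritic cells, with a median log2 fold of -1.40. This count stands against 11.5% higher and 9.66% lower over all genes compared, with a median of 0.10. Without the 24 cells that carried other markers 1 of 7 was higher and 3 lower, with a median of -0.25. Over all 2023 genes compared without them, 298 were higher and 145 lower. Stmn1 was among the mitotic genes, at 90.4 CPM in tenotomy and 384 CPM in sham members (4.25-fold lower), but 1 cell held 53.4% of its sham UMIs.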

How the data were processed

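The deposited values were raw UMI counts per gene and cell barcode, 1 table for each of 2 libraries; per the submitters' processing notes, Cell Ranger 4.0.0 and mm10 were used. Cells were kept with at least 500 UMIs, at least 300 genes and at most 10% mitochondrial UMIs (11237 of 11950 barcodes in tenotomy, 7738 of 8463 in sham). Members were found by their UMIs, and doublets were scored with scrublet in scanpy 1.11.5 and kept. The members and the 27 gene lists were chosen with earlier results of these data known. UMIs were summed per group and scaled to CPM with numpy 2.4.6 and scipy 1.17.1. Shares have Clopper-Pearson 95% intervals, levels exact Poisson intervals and folds exact conditional binomial intervals, all for counting error only. For a ratio of 2 shares the 95% interval was computed from the log of the ratio. A fold against 0 UMIs was computed against 3 UMIs over the group. With 1 library per group no test between samples was possible, the 5 muscles of a pool cannot be told apart, and library and treatment cannot be told apart. Shares of cells were also counted after thinning each cell to 2000 UMIs, which left out 1 tenotomy member. Named genes were the 12 each way with the interval bound farthest from 1 per comparison and the members of the lists. Genes used by the rule were left out of counts. The fold scripts were tested on simulated data. Gene positions came from GENCODE M21 on mm10. The alternatives tried changed the limits of the rule, the doublets, the limits on low counts, the thinning and the denominators. Those that left out members with other markers, all members with Flt3, or the deepest member of each library were chosen after seeing the data.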

Additional observations from a re-analysis of the deposited data

Results flagged for a closer look

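Of the 11 genes whose fold of dendritic cells over C1q macrophages went opposite ways in tenotomy and sham, 5 belong to the gene lists and are given here. Both intervals of each exclude a fold of 1. The difference between the libraries was not tested, since each group has 1 library. Clec10a stood at a fold of 5.26 in tenotomy and 0.228 in sham, and the macrophages themselves held 65.6 CPM in tenotomy and 421 CPM in sham. Fn1 stood at a fold of 0.321 in tenotomy and 5.02 in sham. Il1rn, the antagonist of the interleukin 1 receptor, stood at 0.154 in tenotomy and 2.13 in sham. Stmn1, a tubulin-binding protein of dividing cells, stood at 0.477 in tenotomy and 3.68 in sham, and 1 sham member held 53.4% of its UMIs. Gda, the enzyme guanine deaminase, stood at 0.452 in tenotomy and 2.96 in sham. Without the 24 members that carried markers of other cells, Clec10a stood at a fold of 5.73 in tenotomy and 0.243 in sham, and this was not computed for the others.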

How the results depend on the processing

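Requiring at least 1 Flt3 UMI left 2 sham members. It gave ratios of shares of 50.6 over all kept cells and 5.98 over Ptprc cells. Of 1659 genes then compared, 515 were higher and 40 lower in tenotomy than in sham. Of 1929 genes, 36 were higher than in sham macrophages. Of the named folds this requirement reversed Clec10a over sham (0.766) and Ccr2 over sham macrophages (0.685). A further 21 had 0 UMIs in a group and gave no direction. Without endothelial cells in the denominator the ratio of shares was 7.23. Limits of 10 UMIs and 20 CPM let in more genes. Of 4705 genes 590 were then higher and 564 lower (tenotomy over sham). Of 5676 genes 1040 were lower (over tenotomy macrophages), and of 5582 genes 470 were higher and 1410 lower (over sham macrophages). Of 5167 genes 465 were higher and 404 lower (over Xcr1 Clec9a cells), and of 5782 genes 408 were higher and 1080 lower (over Ly6c2 cells). Without the members carrying other markers, an alternative chosen after seeing the data, 145 of 2023 genes were lower in tenotomy than in sham. Aqp1 over sham (1.92) and S100a9 over Xcr1 Clec9a cells (0.704) were then reversed. Without doublets, Postn (3.78) and S100a9 (0.905) over Xcr1 Clec9a cells were reversed. The causes of the reversals were not tested. Without thinning, cycle transcripts were found in 13.1% of tenotomy members. At least 3 UMIs over Ccr7 and the 5 genes set beside it were found in 38.0% of tenotomy members and 16.7% of sham members without thinning, in 6.23% of tenotomy members at 1000 UMIs, and with 1 more UMI needed in 9.54% of tenotomy members. Thinning put 58.6% of tenotomy members in Cd209a only, 11.2% in Flt3 only and 8.22% in both, and 0 sham members in both. No paired analysis was possible because each group has 1 library, and for the same reason no replicate could be left out. The sham values rest on 18 cells and 302214 UMIs, which limits what could be compared for low genes.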

Other observations

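Lipid and glycolysis genes went both ways between tenotomy and sham dendritic cells. Of 18 measured genes 3 were higher and 4 lower in tenotomy, against 11.5% and 9.66% of all genes, with a median log2 fold of 0.04 against 0.10 over all genes compared. Slc16a3, a lactate transporter, stood at 199 CPM in tenotomy and 82.7 CPM in sham members (2.40-fold higher, 1.61 to 3.75). Fatty acid genes that endothelial cells also carry made up most of the lower side. Fabp4, a fatty acid binding protein, stood at 181 CPM in tenotomy and 1866 CPM in sham members (10.3-fold lower, 9.09 to 11.7), and at 1.24-fold lower, with an interval that includes 1, without the 24 members that carried markers of other cells. Lpl, lipoprotein lipase, was 14.6-fold lower in tenotomy members, and 7.77-fold lower without those members. Without them 3 of 16 measured genes were higher and 1 lower.

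Of 11 measured genes of the migration receptor list, which holds Ccr7, 6 were higher and 0 lower in tenotomy dendritic cells than in the Xcr1 Clec9a cells, against 9.43% and 6.45% of all genes. Between tenotomy and sham dendritic cells 12 were measured, of which 3 were higher and 1 lower, against 11.5% and 9.66% of all genes. Gpr183, a receptor for oxysterols that places dendritic cells in lymphoid organs, stood at 189 CPM in tenotomy and 52.9 CPM in sham members (3.57-fold higher), with 62.5% of its 16 sham UMIs in 1 cell.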
